A study of Homo sapiens with 13 samples.

Results

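The late response of MCF10A cells to a serum mixture was examined on the 6 arrays of the serum series, of 13 arrays in the whole study. MCF10A is a spontaneously immortalized human mammary epithelial cell line. The late arrays (120, 240 and 480 min, n = 3) were set against the early ones (20, 40 and 60 min, n = 3), and every array was chosen by its labelled stimulus and time. All cells had been deprived of serum for 24 h, and the mixture the labels call serum holds horse serum, insulin, hydrocortisone and cholera toxin. The other arrays were 1 of unstimulated cells, which serves as the starting level, and 6 of cells given epidermal growth factor (EGF) for the same times. Each time was measured on 1 array, so the arrays of a phase differ in time as well as by error, and nothing in the labels says that they came from separate cultures. The p-values below thus cover only the spread among these arrays, and an exact permutation test of 3 against 3 arrays could not go below a two-sided p of 0.1 for a single gene.

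The components of the mixture act through different routes. Horse serum carries growth factors and lipids that activate MAP kinase signalling. Insulin activates the PI3K and AKT pathway, which holds FOXO transcription factors out of the nucleus. Hydrocortisone acts on the glucocorticoid receptor, and cholera toxin keeps adenylyl cyclase active so that cAMP and the factor CREB stay engaged. In epithelial cells such stimuli first raise immediate early genes, which encode unstable transcription factors and feedback inhibitors, and later raise genes of growth, adhesion and metabolism. All agents were given together, so no difference below can be assigned to one of them.

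Levels are log2 of the deposited signal plus 6, and differences are late minus early on that scale, with the standard error (SE) of the difference. Folds on this scale understate the change of dim genes. Adjusted p-values are two-sided, from limma, and adjusted over the 7731 genes tested. Of these, 103 genes (1.33%) passed the threshold of 0.05, 54 higher late (0.698%) and 49 lower late (0.634%). The median difference of all tested genes was 0.01, with 3929 genes above 0. For each of the 103 genes the late arrays lay wholly above or below the early ones, as they did for 26.1% of all tested genes.

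The spread behind these p-values was shared with the 6 EGF arrays. When the 6 serum arrays were fitted alone, limma called 0 genes (1411 at an unadjusted p under 0.05, against 1561 in the shared fit), and the adjusted p of the 103 genes ran from 0.0908 to 0.148. The count also rested on single arrays. It was 34, 9 and 24 without the serum array of 20, 40 or 60 min, and 207, 17 and 42 without that of 120, 240 or 480 min. Without the EGF array of 20, 40, 60 or 240 min it was 61, 56, 67 and 44. Every statement below that a gene rose or fell refers to the shared fit.

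**Figure D1:**
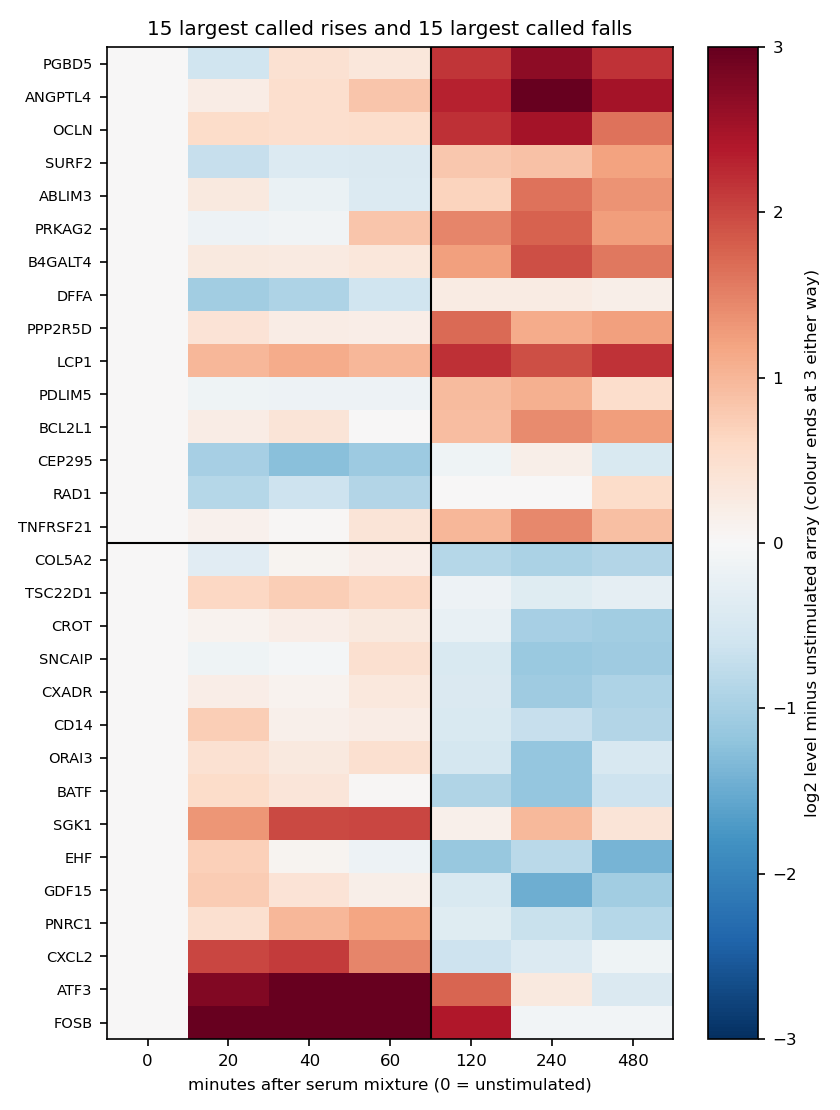
Level of the 15 genes with the largest rises and the 15 with the largest falls past the threshold, on each serum array minus the unstimulated array (log2, colour, which ends at 3 either way), with genes in rows and minutes in columns. Between 60 and 120 min OCLN goes from 5.99 to 7.64 and CXCL2 from 10.03 to 7.95 in log2 level. Other rows change later, such as CROT, at 8.17, 7.65 and 6.87 at 60, 120 and 240 min. The genes were chosen by a contrast whose border lies between 60 and 120 min.

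For the called genes most of the turn lay between 60 and 120 min, a timing that the choice of genes favours. Against the unstimulated array the median of the 54 genes higher late was -0.14, -0.14 and -0.09 at 20, 40 and 60 min and 0.55, 0.69 and 0.62 at 120, 240 and 480 min. The 49 genes lower late had medians of 0.33, 0.22 and 0.29 early and -0.41, -0.44 and -0.48 late. At 120 min the higher genes had reached a median of 96.3% of their difference at 240 and 480 min, and the lower genes 80.2%. The array of 240 min was the highest for 29 of the 54 higher genes and that of 480 min the lowest for 27 of the 49 lower ones. These courses are descriptions of genes chosen by the late-minus-early test, whose border lies between 60 and 120 min. That test favours genes whose array of 120 min lay near those of 240 and 480 min. The shares reached at 120 min thus partly follow from the choice. TNFSF10, at 7.57, 4.70 and 4.63 late, fell mostly after 120 min and did not pass.

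The unstimulated array separated several courses among the called genes, using a margin of log2 0.5 around its level. Of the 54 higher genes, 30 stood above the starting level late without an early dip (5 of them, LCP1, GCNT1, ANKRD2, OCLN and ANGPTL4, were above the margin early too), 6 had dipped below it early and returned, 1 did both and 17 stayed within the margin in both phases. Of the 49 lower genes, 9 had an early mean above the margin (4 of them, DUSP1, FOSB, ATF3 and SGK1, were still above it late), 21 fell below the starting level late, 1 did both and 18 stayed within the margin. The starting level is 1 array, so this grouping carries its error, and the counts change with the margin.

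**Figure D2:**
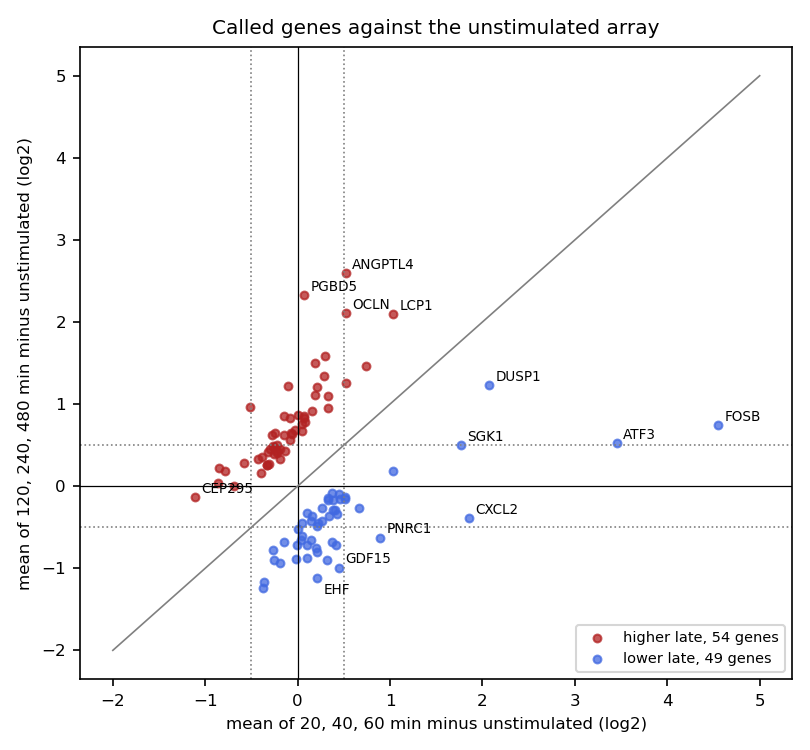
Mean of the early serum arrays (x axis) and of the late serum arrays (y axis), each minus the unstimulated array in log2, for the 103 genes past the threshold. Dotted lines mark the margin of 0.5. ANGPTL4 stands at 0.52 early and 2.60 late, and FOSB at 4.55 early and 0.75 late.

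Genes of the early wave fell back most. FOSB, which encodes a subunit of the transcription factor AP-1, was at 7.46, 7.98 and 7.51 at 20, 40 and 60 min and at 5.51, 3.01 and 3.01 at 120, 240 and 480 min, from 3.10 unstimulated. All late arrays lay below all early ones, and those of 240 and 480 min were back at the starting level. Those arrays and the unstimulated one lay under 4.68, the mean level a gene needed to be tested, so no fold is given. On the log2(signal + 6) scale it fell by 3.81 (SE 0.72, adjusted p = 0.0347). ATF3, a stress-responsive factor that represses many inflammatory genes, was at 7.49, 8.82 and 8.20 early and then at 6.45, 5.00 and 4.27 late, from 4.71 unstimulated. Each late array was lower than the one before it, and ATF3 fell by 2.93 (SE 0.55, adjusted p = 0.0347). Its array of 480 min lay under 4.68, so again no fold is given.

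CXCL2 encodes a chemokine that draws neutrophils. Its levels were 10.58, 10.68 and 10.03 early and 7.95, 8.16 and 8.44 late, from 8.57 unstimulated, so the late arrays were all slightly under the starting level. It fell by 2.25 (SE 0.26, 4.75-fold, adjusted p = 0.0064). SGK1, a kinase named for its induction by serum and glucocorticoids, was at 10.18, 10.83 and 10.84 early and then at 8.99, 9.82 and 9.24 late, from 8.85 unstimulated. The late arrays did not reach the early ones, and SGK1 fell by 1.27 (SE 0.22, 2.41-fold, adjusted p = 0.0273). DUSP1, a phosphatase that switches off MAP kinases, was at 12.05, 12.48 and 12.28 early and then at 11.75, 11.48 and 11.05 late, from 10.20 unstimulated. Unlike FOSB it stayed above its starting level on every late array, by a mean of 1.23, while it fell by 0.85 (SE 0.17, 1.80-fold, adjusted p = 0.0473).

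The other early-peak genes had smaller early means above the starting level. TSC22D1, a leucine zipper protein first found as a gene induced by TGF-beta, was at 9.92, 10.05 and 9.94 early and then at 9.15, 8.94 and 9.03 late, from 9.31 unstimulated. Its arrays were tight within each phase, and it fell by 0.93 (SE 0.11, adjusted p = 0.0064). The iron reductase CYBRD1 fell by 0.85 (SE 0.16, adjusted p = 0.0350). The protease inhibitor SERPINB3 fell by 0.67 (SE 0.12, adjusted p = 0.0316), and the lysosomal protease CTSO by 0.65 (SE 0.13, adjusted p = 0.0405). PNRC1, a coactivator of nuclear receptors, both peaked early and ended low. It was at 8.84, 9.36 and 9.54 early and then at 8.0, 7.68 and 7.50 late, from 8.35 unstimulated. Its late arrays were all under the starting level, and it fell by 1.52 (SE 0.19, adjusted p = 0.0064).

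The promoters of DUSP1 and CXCL2 are shown because both genes peaked early and fell late in serum and after EGF. The letters are the 250 bases before the transcription start from RefSeq (GRCh38.p14), printed 5′ to 3′ on the strand of the gene. DUSP1 lies at chr5:172771196-172771445 (minus strand). Its capitals mark a cAMP response element (CRE, TGACGTCA) that begins 125 bases before the start, an E-box (CACGTG) at 108 and a TATA motif (TATAAA) at 30. CXCL2 lies at chr4:74099196-74099445 (minus strand). Its capitals mark a pair of overlapping matches to the NF-kB motif, which begin 78 and 77 bases before the start.
DUSP1: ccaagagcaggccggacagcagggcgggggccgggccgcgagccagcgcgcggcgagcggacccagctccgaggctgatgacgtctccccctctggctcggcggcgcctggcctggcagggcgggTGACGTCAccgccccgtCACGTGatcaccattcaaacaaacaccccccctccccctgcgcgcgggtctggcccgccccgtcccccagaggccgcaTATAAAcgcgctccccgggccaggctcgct
CXCL2: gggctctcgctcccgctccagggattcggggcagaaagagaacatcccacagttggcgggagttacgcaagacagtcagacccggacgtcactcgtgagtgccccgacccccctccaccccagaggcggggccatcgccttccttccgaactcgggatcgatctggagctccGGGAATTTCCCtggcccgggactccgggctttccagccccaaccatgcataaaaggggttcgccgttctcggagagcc

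These matches describe the letters and show no binding. Promoters were found for 42 of the 49 lower genes and 49 of the 54 higher genes, and motifs were searched on both strands. The CRE was in 2.38% of the promoters of lower genes, which is DUSP1 alone, in 0% of those of higher genes and in 3.17% of the 6457 promoters found for tested genes. The NF-kB motif was in 11.9% of the lower, 12.2% of the higher and 12.2% of the tested. The TATA motif was in 16.7% of the lower, 8.16% of the higher and 5.42% of the tested. An AP-1 motif (TGANTCA) was in 2.38%, 6.12% and 3.83%, and the CArG box of the factor SRF in 0%, 0% and 1.19%. The glucocorticoid element was in 0% of all of them, and the CCAAT box in 40.5%, 32.7% and 36.3%. None of these shares was tested. The letters searched for the glucocorticoid element were found in only 1 of the 27305 promoters of the whole RefSeq table. Its 0% was thus nearly fixed beforehand, and does not show that these promoters lack such elements.

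Another set of lower genes had an early mean within the margin and ended under the starting level. GDF15, a secreted stress cytokine, was at 8.21, 7.86 and 7.62 early and then at 6.98, 5.99 and 6.40 late, from 7.45 unstimulated. The array of 20 min was the highest, the late arrays were below both the early ones and the starting level, and GDF15 fell by 1.44 (SE 0.27, 2.71-fold, adjusted p = 0.0347). EHF, an epithelial factor of the ETS family, was at 5.93, 5.30 and 5.07 early and then at 4.09, 4.41 and 3.83 late, from 5.23 unstimulated. It was highest at 20 min and dim on the late arrays, and it fell by 1.33 (SE 0.25, adjusted p = 0.0347).

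BATF, a partner of AP-1 proteins, was at 6.28, 6.07 and 5.75 early and then at 4.80, 4.55 and 5.11 late, from 5.72 unstimulated. The phases did not overlap, and it fell by 1.21 (SE 0.20, adjusted p = 0.0247). ORAI3, a subunit of calcium channels, was at 7.71, 7.55 and 7.73 early and then at 6.72, 6.10 and 6.76 late, from 7.25 unstimulated, and fell by 1.14 (SE 0.19, adjusted p = 0.0244). CXADR, an adhesion protein of tight junctions known as a virus receptor, fell by 1.01 (SE 0.16, adjusted p = 0.0244), with late levels of 8.82, 8.20 and 8.34 against 9.26 unstimulated. Its direction was opposite to that of the junction gene OCLN described below. SNCAIP, which encodes synphilin, fell by 0.97 (SE 0.20, adjusted p = 0.0478), the peroxisomal enzyme CROT by 0.95 (SE 0.20, adjusted p = 0.0478) and the collagen chain COL5A2 by 0.87 (SE 0.16, adjusted p = 0.0347). For COL5A2 another bright probe set pointed the other way.

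CD14, a co-receptor for bacterial lipopolysaccharide used here as a leukocyte marker, fell as well. It was at 8.20, 7.62 and 7.69 early and then at 7.0, 6.78 and 6.58 late, from 7.47 unstimulated. All late arrays lay under the starting level, and the fall was 1.05 (SE 0.21, adjusted p = 0.0405). Of 17 markers of other cell types on the array, 4 were bright enough to test (CD14, COL1A1, DCN and PDGFRB). The summed signal of the 17 was 722.6 to 892.4 on the early arrays, 477.4 to 563 on the late ones and 660.8 unstimulated. The mean serum-array signals of the 4 tested markers were 163.3 for CD14, 42.7 for COL1A1, 282.2 for DCN and 26.4 for PDGFRB. COL1A1, DCN and PDGFRB are fibroblast markers. The markers not tested ran from 1.1 for LUM to 22.2 for HBB, with the leukocyte marker PTPRC at 6.7 and the endothelial marker VWF at 2.3. The fibroblast marker COL3A1 was at 6.0. The summed signal of 6 basal epithelial markers was 21177.7 to 25577.9 early and 27166.3 to 29209.8 late, and that of 4 general epithelial markers 5325.4 to 5887.9 early and 6170.3 to 6837.6 late. These sums are of deposited signals. After normalization 2 of the 6 basal markers and 1 of the 4 general epithelial markers had negative differences. KRT15, a basal keratin outside these lists, was at -1.79 without passing the threshold. The median difference without quantile normalization was 0.35 for the basal markers, 0.27 for the general epithelial markers, 0.25 for 12 housekeeping genes and -0.02 for all tested genes, against 0.15, 0.25, 0.07 and 0.01 with it. None of these 10 markers passed the threshold (limma, 0 called); the largest differences were KRT8 (0.46, SE 0.14, adjusted p = 0.105) and CDH1 (0.45, SE 0.12, adjusted p = 0.0887). All arrays are labelled as MCF10A cells. A change in the share of cells within the line and a change in RNA per cell cannot be told apart on such arrays. The part of these shifts in the results was not tested.

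**Figure D3:**
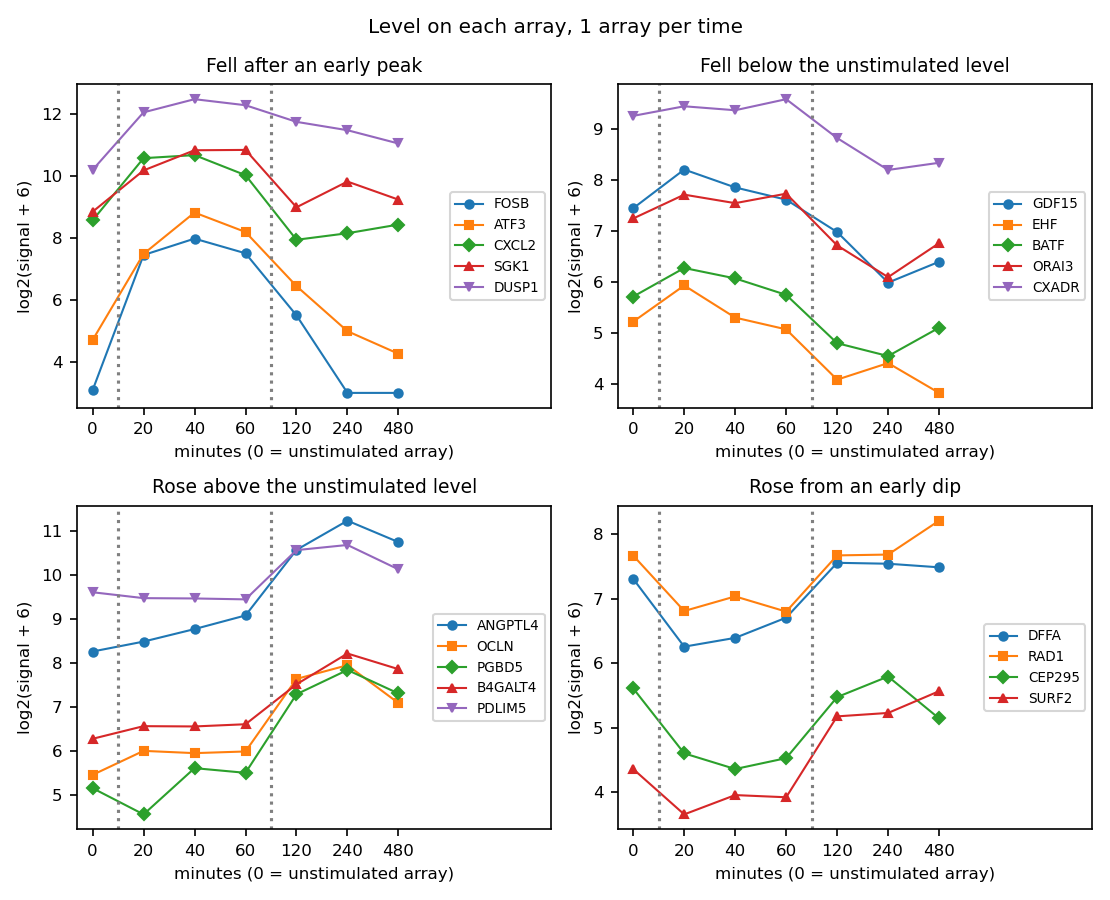
Level of selected genes on the unstimulated array (0 min) and the 6 serum arrays, as log2(signal + 6), with 1 array per time and times spaced evenly rather than to scale. Dotted lines separate the unstimulated, early and late arrays. FOSB drops from 7.51 at 60 min to 3.01 at 240 min, ANGPTL4 climbs from 9.09 to 11.24 and DFFA returns from 6.26 at 20 min to 7.56 at 120 min.

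Among the genes that rose, ANGPTL4 and PGBD5 had the largest differences. ANGPTL4 encodes a secreted inhibitor of lipoprotein lipase, which frees fatty acids from circulating fat, and its gene is a known target of PPAR factors and of glucocorticoids. It was at 8.49, 8.77 and 9.09 early and then at 10.58, 11.24 and 10.76 late, from 8.26 unstimulated. Every serum array was above the unstimulated one, and the late arrays were all above the early ones (2.08, SE 0.22, 4.22-fold, adjusted p = 0.0061). PGBD5, which derives from a DNA transposase, was at 4.55, 5.61 and 5.50 early and then at 7.29, 7.84 and 7.31 late, from 5.15 unstimulated. It was below its starting level at 20 min and slightly above it at 40 and 60 min, and rose by 2.26 (SE 0.26, adjusted p = 0.0064). The array of 20 min lay under 4.68, so no fold is given for PGBD5.

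The promoter of ANGPTL4 is shown because it had the lowest adjusted p among the late-rising genes together with SURF2. It lies at chr19:8363905-8364154 (plus strand, RefSeq, GRCh38.p14). The capitals mark a match to the motif of EGR factors (GCGNGGGCG), which begins 190 bases before the start, and a TATA motif at 29. The EGR motif was in 20.4% of the promoters of higher genes, 14.3% of those of lower genes and 14.5% of those of tested genes, and the E-box in 14.3%, 9.52% and 9.26%.
ANGPTL4: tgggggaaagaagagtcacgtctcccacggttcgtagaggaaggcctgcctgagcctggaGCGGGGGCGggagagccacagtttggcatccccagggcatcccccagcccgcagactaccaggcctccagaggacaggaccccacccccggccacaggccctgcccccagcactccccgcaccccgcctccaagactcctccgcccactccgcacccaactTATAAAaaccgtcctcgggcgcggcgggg

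OCLN encodes occludin, a membrane protein of tight junctions. It was at 6.0, 5.95 and 5.99 early and then at 7.64, 7.95 and 7.09 late, from 5.45 unstimulated. The early arrays were nearly equal and the late ones all higher (1.58, SE 0.26, 2.99-fold, adjusted p = 0.0251). The actin-binding protein ABLIM3 was at 6.63, 6.14 and 5.92 early and then at 7.01, 7.96 and 7.70 late, from 6.34 unstimulated, and rose by 1.33 (SE 0.23, adjusted p = 0.0290). PDLIM5, which links kinases to actin filaments, was at 9.48, 9.47 and 9.45 early and then at 10.57, 10.69 and 10.14 late, from 9.61 unstimulated, and rose by 1.0 (SE 0.14, adjusted p = 0.0153). For both, the unstimulated array lay among or close to the early ones.

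LCP1, an actin-bundling protein, was already above its starting level of 3.77 early, at 4.76, 4.88 and 4.77. It stood at 5.96, 5.71 and 5.93 late (1.06, SE 0.18, adjusted p = 0.0273). Its starting level lay under 4.68. The Golgi enzyme B4GALT4, which adds galactose to glycans, was at 6.56, 6.56 and 6.61 early and then at 7.52, 8.22 and 7.86 late, from 6.27 unstimulated. The early arrays differed by little beside the late rise of 1.29 (SE 0.16, 2.45-fold, adjusted p = 0.0064). TNFRSF21, a death receptor of the tumour necrosis factor family, rose by 0.93 (SE 0.19, adjusted p = 0.0473). KRT10, a keratin of differentiating keratinocytes, rose by 0.77 (SE 0.12, adjusted p = 0.0244), from 7.75, 7.75 and 7.92 early to 8.40, 8.53 and 8.81 late.

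PRKAG2, a regulatory subunit of the energy sensor AMPK, was at 7.05, 7.09 and 8.02 early and then at 8.66, 8.97 and 8.46 late, from 7.20 unstimulated. The array of 60 min was already above the other early ones (1.31, SE 0.25, adjusted p = 0.0347), and averaging its probe sets gave 0.49, which was not called. BCL2L1, which encodes the survival protein BCL-XL, was at 6.30, 6.48 and 6.11 early and then at 7.02, 7.51 and 7.35 late, from 6.09 unstimulated (1.0, SE 0.16, adjusted p = 0.0244). Its early arrays were close to the starting level. ID3, an inhibitor of basic helix-loop-helix factors, was at 8.61, 8.73 and 8.83 early and then at 9.86, 9.25 and 9.64 late, from 8.71 unstimulated (0.86, SE 0.17, adjusted p = 0.0364). PPP2R5D, a regulatory subunit of the phosphatase PP2A, differed by 1.06 (SE 0.15, adjusted p = 0.0154), while another bright probe set of the gene was at -0.16.

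A smaller set of higher genes had dipped early and returned. DFFA, which encodes the inhibitor of the DNase that cuts DNA in apoptosis, was at 6.26, 6.39 and 6.71 early and then at 7.56, 7.54 and 7.49 late, from 7.31 unstimulated. The late arrays were near the starting level and the early ones below it (1.08, SE 0.13, adjusted p = 0.0064). CEP295, a centriole protein, was at 4.60, 4.36 and 4.53 early, all under 4.68. It was at 5.47, 5.79 and 5.14 late, from 5.61 unstimulated (0.97, SE 0.18, adjusted p = 0.0347). RAD1, a subunit of a DNA damage checkpoint clamp, showed the same order (0.97, SE 0.20, adjusted p = 0.0425), with other bright probe sets at 0.19 and 0.23. COA7, RRP7A and UBE2G2 completed this set, with differences of 0.89, 0.86 and 0.69. SURF2, which was dim, both dipped and ended high, at 3.66, 3.96 and 3.92 early and 5.18, 5.23 and 5.57 late from 4.36 unstimulated (1.48, SE 0.16, adjusted p = 0.0061).

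Limits of these calls differed between genes. The alternatives fitted on the serum arrays alone (by phase or as a line on log2 minutes) called no gene. Of the 34 called genes that the naming rule picked, 7 kept their call in each other alternative that tested them. They were CXCL2, PNRC1, TSC22D1, DFFA, SURF2, ANGPTL4 and PGBD5. The filter at the 60th percentile left 24 of the 34 to test and dropped the dimmest, SURF2 and PGBD5 among them. Without the serum array of 20, 40 or 60 min 20, 26 and 21 of the 34 calls were lost, without that of 120, 240 or 480 min 1, 22 and 18, and without the filter on dim genes 26. With the mean of all probe sets COL5A2 (-0.35), GDF15 (-0.72), PDLIM5 (0.61), PPP2R5D (0.45), PRKAG2 (0.49) and RAD1 (0.46) moved by over 1.5 times and lost their calls, and DUSP1 was at -1.30 with its call kept. With an offset of 24 CEP295 (0.62), COL5A2 (-0.56), EHF (-0.80), SNCAIP (-0.61) and SURF2 (0.84) moved as far and kept their calls. The 20 min serum array had 33.3% of probe sets under a signal of 20, against 37.64% to 39.31% on the other serum arrays, and the part of this gap in the results was not tested.

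**Figure D4:**
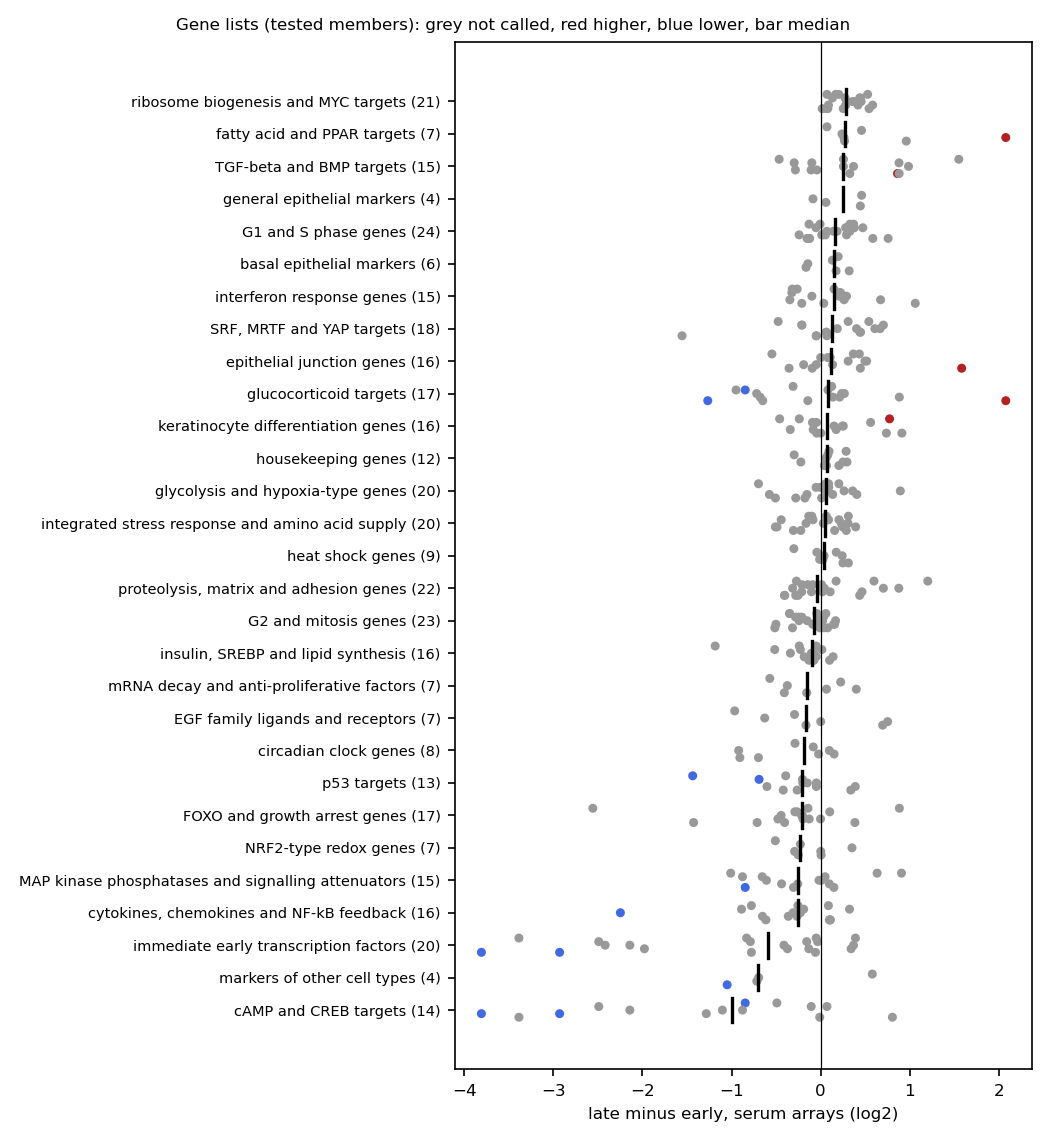
Late-minus-early difference in the serum series (x axis, log2) of the tested members of the 29 gene lists, with the number tested in brackets. Each point is a gene, coloured where it passed the threshold (red higher, blue lower), and the bar is the list median, which runs from -0.99 for cAMP and CREB targets to 0.28 for ribosome biogenesis genes.

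Lists of genes known for the pathways that the mixture engages were counted next, and several share members. Of 20 tested immediate early transcription factors, 0 were higher and 2 lower past the threshold (FOSB and ATF3), with a median of -0.59 beside 0.01 for all tested genes. FOSB entered the test only through its early serum arrays, as stated above. FOS, the partner of JUN in AP-1, was at 9.68, 9.86 and 7.23 early and then at 7.23, 5.59 and 3.80 late, from 5.16 unstimulated. The array of 60 min was already as low as that of 120 min, and the difference of -3.39 (SE 0.82, adjusted p = 0.0636) did not pass. EGR1, a zinc-finger factor, was at -1.98 (SE 0.46, adjusted p = 0.0599). MYC, a driver of growth, was at 11.37, 11.76 and 11.65 early and then at 11.33, 11.73 and 11.32 late, from 11.39 unstimulated, and the phases overlapped (-0.13, SE 0.22, adjusted p = 0.786).

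KLF4, a factor of epithelial differentiation, kept a raised level in both phases. It was at 8.16, 8.67 and 9.20 early and then at 9.26, 8.59 and 8.07 late, from 6.51 unstimulated. Every serum array was above the starting level, and the phases overlapped (-0.03, SE 0.31, adjusted p = 0.965; the sign turned without the serum array of 60 or 480 min). Of 15 MAP kinase phosphatases and other attenuators, 0 were higher and 1 lower (DUSP1), with a median of -0.26. Of 16 cytokine and NF-kB genes, 0 were higher and 1 lower (CXCL2), with a median of -0.26. Of 7 mRNA decay and antiproliferative factors none was called (limma; median -0.16), the largest value being ZFP36 at -0.57 (SE 0.30, adjusted p = 0.320).

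Targets of cAMP and CREB had the lowest median of the 29 lists, -0.99, with 0 of 14 higher and 3 lower (FOSB, ATF3 and DUSP1). These 3 genes were already counted in the lists above, as were FOS, NR4A1, NR4A2 and RGS2, so the median repeats part of those lists. The remaining members were PTGS2 (-1.28), CITED2 (-1.10), PDE4B (-0.49), SIK1 (-0.11), PDE4D (-0.01), CREM (0.07) and AKAP12 (0.80). FOSB entered the test only through its early serum arrays. Of the 14, 12 had negative values. Targets of glucocorticoids were split, with 1 of 17 higher (ANGPTL4), 2 lower (SGK1 and DUSP1) and a median of 0.08. Fatty acid and PPAR genes had 1 of 7 higher (ANGPTL4), 7 of 7 positive and a median of 0.27. Genes of insulin and SREBP lipid synthesis had 0 of 16 called, 13 negative values and a median of -0.09. SREBF1, which encodes the SREBP factor of fatty acid synthesis, was at 8.48, 8.46 and 8.54 early and then at 8.07, 7.14 and 6.71 late, from 8.65 unstimulated. Its late arrays were all below the early ones, without passing (-1.18, SE 0.27, adjusted p = 0.0565). After EGF the medians of these lists were -0.77, -0.66, -0.09 and 0.01, in the order given. The serum and EGF medians were not compared by a test.

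FOXO and growth arrest genes had 14 of 17 negative values, a median of -0.21 and 0 called. After EGF the median of this list was lower, at -0.46, without a test of the difference. BCL6, a transcriptional repressor, was at -1.43 (SE 0.31, adjusted p = 0.0529). TNFSF10, the death ligand TRAIL, was at 8.32, 8.21 and 8.04 early and then at 7.57, 4.70 and 4.63 late, from 7.91 unstimulated. Only its arrays of 240 and 480 min were far down, and the difference of -2.56 (SE 0.68, adjusted p = 0.0790) did not pass. Targets of p53 had 0 of 13 higher and 2 lower, with a median of -0.20. They were GDF15 and PMAIP1, which encodes the apoptosis promoter NOXA and fell by 0.69 (SE 0.10, adjusted p = 0.0153).

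Growth lists had no member past the threshold. Each of the 21 tested genes of ribosome biogenesis and MYC was above 0, with a median of 0.28 and 0 called; PUS7, an RNA-modifying enzyme, was at 0.54 (SE 0.13, adjusted p = 0.0636). Outside the list, GTPBP4 (0.57, adjusted p = 0.0449), PWP2 (0.65, adjusted p = 0.0405), POLR1E (0.72, adjusted p = 0.0480) and RRP7A (0.86, adjusted p = 0.0251), whose products take part in making ribosomes, passed; they were picked after their values were seen. Of 24 genes of G1 and S phase 17 were positive (median 0.16, 0 called), with cyclin D1 (CCND1) at 0.76 (SE 0.21, adjusted p = 0.0872). Of 23 genes of G2 and mitosis 8 were positive (median -0.07, 0 called).

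Lists of adhesion and differentiation had few calls. Epithelial junction genes had 1 of 16 higher (OCLN) and a median of 0.12. Keratinocyte differentiation genes had 1 of 16 higher (KRT10) and a median of 0.08. TGF-beta and BMP targets had 1 of 15 higher (ID3) and a median of 0.26. Targets of SRF, MRTF and YAP had 0 of 18 called and a median of 0.13. There CCN2, a secreted matrix protein, overlapped between phases (-1.56, SE 0.65, adjusted p = 0.214), and THBS1, another matrix protein, was at 0.70 (SE 0.15, adjusted p = 0.0519). Proteolysis, matrix and adhesion genes had 0 of 22 called (median -0.04, and 0.01 without quantile normalization), with the urokinase receptor PLAUR at 1.20 (SE 0.44, adjusted p = 0.163).

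No member was called in the other lists. EGF family ligands and receptors had 7 tested and a median of -0.16, with TGFA at 0.75 (SE 0.16, adjusted p = 0.0519) and HBEGF at -0.96 (SE 0.42, adjusted p = 0.229). The medians were 0.15 for 15 interferon genes, 0.06 for 20 glycolysis genes and 0.05 for 20 genes of the integrated stress response. They were 0.04 for 9 heat shock genes, -0.23 for 7 NRF2-type redox genes, -0.19 for 8 clock genes and 0.07 for 12 housekeeping genes. In all the lists named here with 0 called, the tool was limma, and 1561 of all tested genes had an unadjusted p under 0.05.

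The same contrast after EGF alone showed smaller values for most of the called genes. The EGF arrays are different samples, but they helped to set the spread. Of the 54 genes higher late in serum, 41 were positive after EGF, with a median of 0.18 against 0.76 in serum. Of the 49 lower ones 39 were negative after EGF, with a median of -0.30 against -0.70. These genes were chosen on their serum values, so the gap between the medians is no test. CXCL2, DUSP1, FZD2, C1orf216 and MICAL2 were past the threshold in the same direction after EGF, where 19 genes were called in all.

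The difference between the stimuli was tested as an interaction with time as a block. None of the 103 genes passed it (limma, 0 called, lowest adjusted p = 0.0751; 63 had an unadjusted p under 0.05, as had 860 of all 7731). No late change in those genes can therefore be called particular to serum here. The 103 genes were chosen on serum arrays that the interaction also uses, so the 63 beside the 860 is no test. Among all genes 2 passed (0.0259%), and both fell after EGF. ZBTB16, a zinc-finger factor known as a glucocorticoid target, was at 6.98, 6.98 and 7.34 early and then at 7.56, 7.25 and 6.89 late in serum, from 7.33 unstimulated. After EGF it was at 7.06, 7.08 and 6.90 early and then at 4.86, 4.46 and 3.79 late. It thus overlapped between phases in serum and was low on every late EGF array (serum minus EGF 2.78, SE 0.21, adjusted p = 0.0290). SOCS1, an inhibitor of cytokine signalling, was at 4.80, 4.34 and 4.34 early and then at 5.73, 4.95 and 5.52 late in serum, and at 5.63, 5.78 and 5.65 early and 4.12, 3.81 and 4.24 late after EGF. The directions were opposite (serum minus EGF 2.54, SE 0.22, adjusted p = 0.0380), while the serum value alone did not pass (0.91, SE 0.20, adjusted p = 0.0562). Several of these SOCS1 levels lay under 4.68, and averaging its probe sets gave a difference between the stimuli of 0.51. Both calls were lost when a pair of arrays of 20, 40, 120, 240 or 480 min was left out, and 1 remained without the pair of 60 min.

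**Figure D5:**
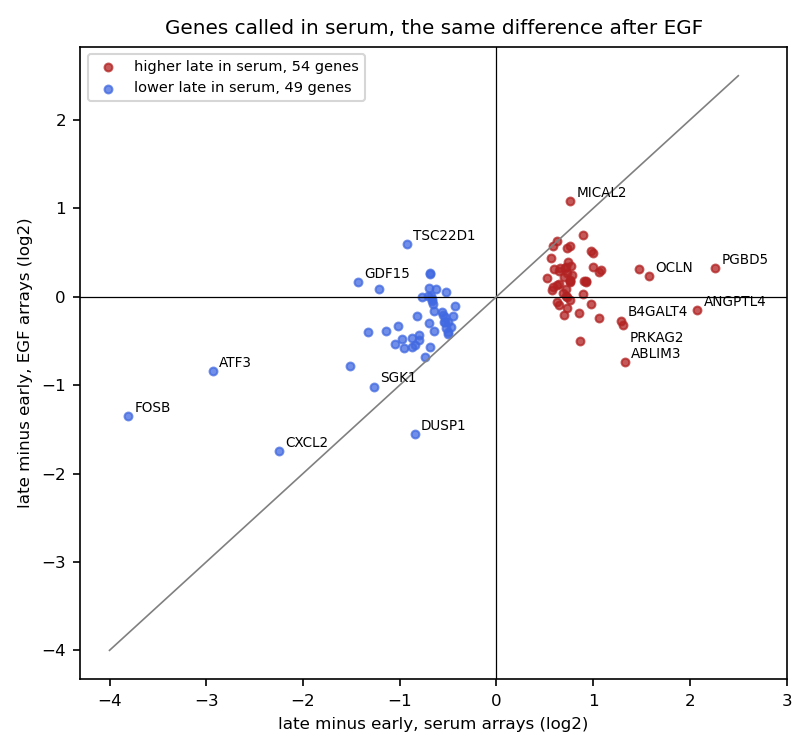
Late-minus-early difference in the serum series (x axis) and after EGF (y axis), both in log2, for the 103 genes past the threshold in serum; the diagonal marks equal values. ANGPTL4 lies at 2.08 in serum and -0.15 after EGF, and CXCL2 at -2.25 and -1.75.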

How the data were processed

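The study holds 13 Affymetrix arrays of serum-deprived MCF10A cells, and each deposited intensity is 1 MAS5 signal per probe set on a linear scale, per the submitters' processing notes, with a version not given in the sources used here. One array, EGF at 20 min, carries another time in its description, and was placed by its title.

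The scale was log2(signal + 6), with quantile normalization over the 13 arrays. Of 22277 probe sets, 19064 had 1 gene symbol; the brightest probe set by mean stood for each of 11963 genes, and 7731 passed a filter at the 40th percentile of means (4.68). limma 3.58.1 in R 4.3.3 was fitted (lmFit, eBayes) on the 12 stimulated arrays in 4 groups (8 residual degrees of freedom); the serum contrast takes its means from the 6 serum arrays alone. The interaction had time as a block (4 residual degrees of freedom). The Benjamini-Hochberg adjustment was used, with a threshold of 0.05. The code was tested on simulated data.

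The members, the gene lists and the rules were chosen with earlier results of these data known. Genes named were the 15 largest rises and 15 largest falls past the threshold, up to 4 called members of each list (otherwise the 2 largest as values), FOS, EGR1, MYC, DUSP1 and KLF4, and up to 5 each way for the interaction; further called genes of a course group were named after their values were seen. Alternatives were no offset or an offset of 24, no quantile normalization or one over the serum arrays, no filter or one at the 60th percentile, robust variances with a trend, the mean of all probe sets, the serum arrays alone, a line on log2 minutes, no time block and each array left out; other margins and both 20 min arrays left out were added after seeing the data. Promoters were matched by symbol in the RefSeq table. Tables came from pandas 2.3.3 and numpy 2.4.6 in Python 3.11.15, and plots from matplotlib 3.10.9. The number of arrays limits the precision.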

Additional observations from a re-analysis of the deposited data

Results flagged for a closer look

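Late minus early, ZBTB16 differed between serum and EGF by 2.78 (SE 0.21, adjusted p = 0.0290 by limma), from 0.14 in serum to -2.65 after EGF, and stood out because the test of the difference between the stimuli passed. SOCS1 differed by 2.54 (SE 0.22, adjusted p = 0.0380 by limma), from 0.91 to -1.63, for the same reason. Over the alternatives the ZBTB16 difference ran from 2.04 to 3.26 and that of SOCS1 from 0.51, with the mean of its probe sets, to 3.24.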

How the results depend on the processing

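The count of 103 genes for late minus early in serum was 199 with an offset of 24, 10 without the filter, 290 with the filter at the 60th percentile, 67 with the mean of all probe sets and 413 with a variance trend and robust variances. It was 0 with the serum arrays alone or a line on log2 minutes, 9 to 207 with 1 serum array left out (34, 9, 24, 207, 17 and 42 by time), 44 to 98 with 1 EGF array left out (61, 56 and 67 early, 44 without 240 min), and 18 without both 20 min arrays. The 2 genes of the serum-minus-EGF difference became 0 without an offset or a filter, 1 without quantile normalization or with the mean of probe sets, 8 with an offset of 24, 70 with the variance trend, 6 without the time block and 0 to 1 with 1 array left out. With a margin of 0.25 or 1 around the starting level, higher genes above it late were 48 or 13 and below it early 20 or 1; lower genes above it early were 26 or 6 and below it late 36 or 3. The sign turned for POLR2A with the mean of probe sets (-0.01), for KLF4 without the serum array of 60 min (0.23) or 480 min (0.25) and for ZBTB16 without that of 120 min (-0.028), none of them past the threshold. The cause of these changes was not tested. No call among the 34 named genes turned direction in any alternative run. The labels give no replicate numbers, so serum and EGF arrays were matched only by time, as the block of the serum-minus-EGF difference.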

Other observations

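Several genes outside the lists had large late differences that did not pass the threshold, and they were picked after their values were seen. KRT15, a keratin of basal epithelial cells, was at 10.56, 10.95 and 11.05 on the early serum arrays and then at 10.51, 9.10 and 7.58 on the late ones, from 11.19 unstimulated. It was lower on each later array of the late phase (-1.79, SE 0.63, adjusted p = 0.149 by limma), and after EGF it was at -1.72. ALDH1A3, which makes retinoic acid, was at 7.15, 7.82 and 8.63 early and then at 9.44, 9.57 and 8.98 late, from 7.95 unstimulated (1.46, SE 0.36, adjusted p = 0.0643 by limma). NPAS2, a clock factor, was at 3.25, 4.91 and 3.48 early and then at 5.77, 6.19 and 4.93 late, from 4.95 unstimulated. Its arrays of 20 and 60 min lay under 4.68. The difference was 1.75 in serum (SE 0.45, adjusted p = 0.0727 by limma) and -0.03 after EGF. The serum-minus-EGF difference did not pass (adjusted p = 0.412 by limma).

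Probe sets without exactly 1 gene symbol were outside the gene tests. In a fit of probe sets, 5 of 658 with several symbols and 10 of 926 with no symbol passed the threshold, beside 118 of 11745 with 1 symbol.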
